A study of Mus musculus with 4 samples.

Results

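The imprinted Dlk1-Meg3 locus of distal mouse chromosome 12 was examined in quadriceps muscle through its 6 genes Dlk1, Meg3, Rian, Mirg, Rtl1 and Dio3. The members were chosen by symbol alone, as the 6 rows with these names among the 51826 rows of the gene count table, and each symbol stood on 1 row. Libraries of polyA RNA came from 4 male C57BL6/J mice at 20 weeks of age, with 1 library per mouse. The 2 wild-type (WT) mice carried an intact Mef2d gene. The 2 Mef2dα2 Eko mice were homozygous for a whole-body deletion, made with CRISPR-Cas9, of the α2 exon of Mef2d, the exon that gives the muscle-specific isoform of the transcription factor MEF2D. The mice were sedentary, and the founder line of the sequenced Mef2dα2 Eko mice is not given in the sample labels. The comparison asked whether loss of the α2 exon went with a difference in the RNA of the locus.

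Genes of an imprinted locus are expressed only or mainly from the chromosome of a single parent. At this locus the maternal chromosome expresses a run of long noncoding RNAs, Meg3, Rian and Mirg, which host many small nucleolar RNAs and microRNAs, and the paternal chromosome expresses the protein-coding genes Dlk1, Rtl1 and Dio3. The noncoding cluster, also known as Gtl2-Dio3, is a known target of the related factor MEF2A in muscle cells, and Dlk1 and Rtl1 are known for their part in muscle growth in callipyge sheep. All mice were of a single inbred strain, so the parental origin of the reads was not measured here, and maternal and paternal are used below as names for the known classes.

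In GRCm38, Dlk1 (ENSMUSG00000040856) opens the locus at positions 109452823 to 109463336 of chromosome 12, on the plus strand. Meg3 (ENSMUSG00000021268) follows at 109541001 to 109571726, Rian (ENSMUSG00000097451) at 109603940 to 109661716 and Mirg (ENSMUSG00000097391) at 109729764 to 109749460, all on the plus strand. Rtl1 (ENSMUSG00000085925) lies on the minus strand at 109589193 to 109600330, between Meg3 and Rian, and Dio3 (ENSMUSG00000075707) closes the locus on the plus strand at 110279068 to 110281097. From the start of Dlk1 to the end of Dio3 the locus spans 828 kb. The map of the locus shows the noncoding genes as 1 run with the same direction of transcription, and Dio3 738.1 kb from the start of Meg3.

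**Figure D1:**
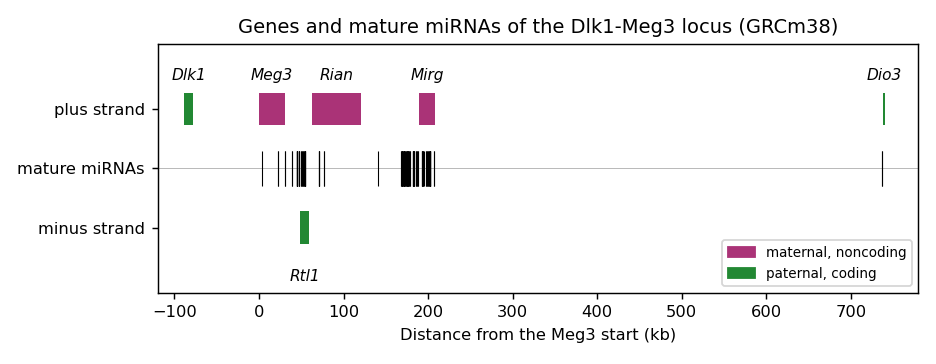
Genes and mature microRNAs of the locus along distance from the Meg3 start in kb, with plus-strand genes above, minus-strand genes below, and colour for the maternal noncoding and paternal coding classes. The microRNAs, drawn as black ticks, crowd between 0 and about 200 kb, where Meg3, Rian, Mirg and the minus-strand Rtl1 lie.

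The noncoding genes host small RNAs, so sequences of small RNAs of the locus are shown first. The RefSeq hairpin entries used here place 58 microRNA hairpins between Begain and Ppp2r5c, the genes that flank the locus. Of these, 54 are on the plus strand. Of the 58, 24 lie between Rian and Mirg, 14 within Mirg, 8 between Meg3 and Rtl1 and 6 within Rtl1 on its opposite strand. The 114 mature microRNA entries of this region were counted apart, and some have no hairpin among the 58. They hold 104 distinct seeds, and 10 seeds are each held by 2 entries. For the seed GCCCCUG both entries are miR-3070-5p, with the same sequence at 2 positions. The 7 sequences that follow, from RefSeq with bases 2 to 8 (the seed) in capitals, come from 3 of the stretches named above. The first 4 lie inside Rtl1 on the opposite strand, the next 2 share the seed AUGUAAC and lie between Rian and Mirg, and miR-410-3p lies within Mirg.
miR-433-3p: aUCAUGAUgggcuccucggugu
miR-127-3p: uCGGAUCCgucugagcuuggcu
miR-434-3p: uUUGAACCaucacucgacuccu
miR-136-5p: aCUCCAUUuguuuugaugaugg
miR-379-3p: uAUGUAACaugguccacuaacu
miR-411-3p: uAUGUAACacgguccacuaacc
miR-410-3p: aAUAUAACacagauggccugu
The 4 opposite to Rtl1 start at positions 109591781, 109592888, 109594565 and 109595331 of chromosome 12. The pair with the shared seed starts at 109709102 and 109710225, and miR-410-3p lies at 109743764 to 109743784. PolyA libraries do not measure mature small RNAs. All 96 small RNA genes of this region had a row in the table, and 0 of them had a count above 0 in any library, so the values below are those of the host transcripts only.

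Transcription of the noncoding run opens at Meg3, and its promoter is shown because the noncoding genes are compared below. It covers chr12:109540746-109541045 on the plus strand of GRCm38.p6, 250 bases before to 50 after the RefSeq start. Capitals mark a cyclic AMP response element, TGACGTCA, and 2 overlapping TATA boxes, TATAAA, read on both strands.
Meg3 promoter: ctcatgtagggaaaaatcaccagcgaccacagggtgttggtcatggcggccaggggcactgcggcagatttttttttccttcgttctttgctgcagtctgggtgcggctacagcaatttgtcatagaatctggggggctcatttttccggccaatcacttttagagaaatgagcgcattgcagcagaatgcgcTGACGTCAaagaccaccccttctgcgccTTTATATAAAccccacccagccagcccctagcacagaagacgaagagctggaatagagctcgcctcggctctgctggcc
The response element begins 57 bases before the start, and the TATA boxes begin 29 and 25 bases before it. Among 32851 RefSeq promoters of the same length, 1.79% held the response element and 13.6% the TATA box. The MEF2 consensus, searched on both strands, was held by 3.19% of all promoters and by none of the 6 windows available for 5 of the 6 members, Meg3 having 2 windows. The Dio3 window held a TATA box 31 bases before its start. These matches are letters in a window and say nothing of binding.

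The genotypes were compared by the quasi-likelihood test of edgeR over the 16120 genes that passed its filter on low counts. A gene was called at a Benjamini-Hochberg adjusted p below 0.05. Library totals ran from 72626757 to 85176059 counts and overlapped between the genotypes. WT replicate 1 stood apart from the other libraries, with a chi-square statistic per degree of freedom of 121 to 217 against each of them, where the other pairs had 35.9 to 42.5, so values without it are given with each member. CPM stands for counts scaled to library totals with TMM factors, and a positive log2 fold change stands for a higher level in Mef2dα2 Eko mice. All 6 members passed the filter on low counts. In all, 67 genes passed the threshold, which is 0.416% of the genes tested. The gene-level counts cannot show the α2 exon itself, and Mef2d as a whole read 259 and 227 CPM in WT and 252 and 241 CPM in Mef2dα2 Eko mice, with overlapping groups.

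None of the 6 members passed the threshold. The edgeR quasi-likelihood test called 0 members against 0.416% of all genes tested. At an unadjusted p below 0.05 it counted 1 member, Dlk1, where 11.6% of all genes tested reached that level. DESeq2 gave an adjusted p for 3 of the members, Dlk1, Meg3 and Rian, and called 0, with 0 also below an unadjusted p of 0.05, and limma-voom called 0 with 1 below that level. The median log2 fold change of the 6 members was 0.03, beside -0.01 for all genes tested, and 3 members lay above 0 and 3 below. Since RNA came from whole muscle, fewer cells of a type and less RNA per cell cannot be told apart in any value below. The p-values measure the spread between single mice, 2 per genotype. The edgeR test draws the spread of each gene towards a trend over all genes tested, so that spread is partly shared between genes.

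**Figure D2:**
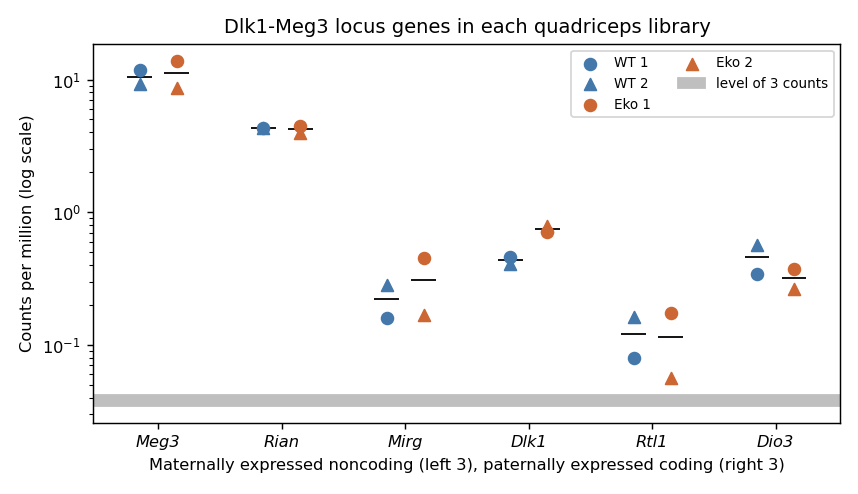
TMM-scaled CPM of each of the 6 genes in each of the 4 mice, on 1 log axis, with 1 point per mouse (blue for WT, orange for Mef2dα2 Eko), a line at the mean of each genotype, and a grey band at the level of 3 counts. Dlk1 is the gene in which both Mef2dα2 Eko mice, at 0.707 and 0.783 CPM, stand above both WT mice.

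Among the maternal noncoding genes, Meg3, a long noncoding RNA found mainly in the nucleus, read 11.7 and 9.25 CPM in WT replicates 1 and 2 and 13.8 and 8.63 CPM in Mef2dα2 Eko replicates 1 and 2. The WT mice lay between the Mef2dα2 Eko mice, which were the highest and the lowest of the 4. Means were 10.5 ± 1.75 CPM in WT and 11.2 ± 3.63 CPM in Mef2dα2 Eko mice (SD, n = 2 each). The log2 fold change was 0.10 with a standard error of 0.22 and a 95% interval from -0.42 to 0.62, which is 0.745-fold to 1.54-fold (edgeR adjusted p = 0.900). The direction rested on single mice. Leaving out Mef2dα2 Eko replicate 1 gave -0.27, leaving out Mef2dα2 Eko replicate 2 gave 0.39, leaving out WT replicate 1 gave 0.28 and leaving out WT replicate 2 gave -0.05.

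Rian, the host of C/D box small nucleolar RNAs, was the steadiest member, at 4.35 and 4.29 CPM in WT mice and 4.45 and 3.97 CPM in Mef2dα2 Eko mice. The WT mice again lay between the Mef2dα2 Eko mice, and the counts behind these levels ran from 284 to 384. Means were 4.32 ± 0.0409 CPM in WT and 4.21 ± 0.341 CPM in Mef2dα2 Eko mice (SD, n = 2 each). Its log2 fold change was -0.03 with a standard error of 0.13, and the 95% interval ran from 0.788-fold to 1.21-fold, the narrowest of the 6 (edgeR adjusted p = 0.943). Without Mef2dα2 Eko replicate 2 the value was 0.044, and without WT replicate 1 it was -0.02.

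Mirg, the microRNA host at the far end of the noncoding run, had few counts, 12 and 23 in WT mice and 39 and 12 in Mef2dα2 Eko mice. These were 0.158, 0.284, 0.452 and 0.168 CPM, so that Mef2dα2 Eko replicate 1 stood highest and the other mutant lay between the WT mice. The exact 95% Poisson interval of a count of 39 ran from 27.7 to 53.3 and that of a count of 12 from 6.20 to 20.96, covering counting error only. On the log2 scale the fold change was 0.50 with a standard error of 0.60 and an interval from -0.92 to 1.91 (edgeR adjusted p = 0.797). Without Mef2dα2 Eko replicate 1 it was -0.39, without Mef2dα2 Eko replicate 2 it was 1.02, and without WT replicates 1 and 2 in turn it was 0.14 and 1.00.

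The 2 Mef2dα2 Eko mice thus differed from each other in unequal measure across the noncoding genes. Mef2dα2 Eko replicate 1 exceeded replicate 2 by 2.70-fold in Mirg, 1.60-fold in Meg3 and 1.12-fold in Rian, and the same ratio was 3.11 in the coding gene Rtl1 and 0.904 in Dlk1. The ratio of Meg3 to Rian counts reached 2.70 and 2.16 for WT and 3.09 and 2.17 for Mef2dα2 Eko mice, so it also differed within each genotype and overlapped between them.

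Among the paternal coding genes, Dlk1 came closest to a difference. It encodes a transmembrane protein of the epidermal growth factor-like family that acts as a noncanonical Notch ligand and is known from muscle growth and fat cell precursors. Dlk1 had 35 and 33 counts in WT mice and 61 and 56 counts in Mef2dα2 Eko mice, which were 0.461, 0.408, 0.707 and 0.783 CPM. Both Mef2dα2 Eko mice lay above both WT mice, as did 20.8% of all genes tested. Means were 0.435 ± 0.0376 CPM in WT and 0.745 ± 0.0534 CPM in Mef2dα2 Eko mice (SD, n = 2 each), a ratio of 1.72. The log2 fold change was 0.78 with a standard error of 0.31 and an interval from 1.03-fold to 2.85-fold, and it did not pass the threshold (edgeR adjusted p = 0.411). With 2 mice against 2 an exact two-sided permutation test cannot go below p = 0.333.

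Dlk1 kept its sign under each of the 8 alternatives in which it was tested, with values from 0.77 to 0.79 and adjusted p-values from 0.340 to 0.683. Without WT replicate 1 the value was 0.87. Leaving out each mouse in turn gave 0.70 to 0.87, with edgeR adjusted p-values from 0.551 to 0.767. In no alternative did it pass the threshold.

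Rtl1, a gene of retrotransposon origin that is known from placenta and muscle, had the fewest counts, 6 and 13 in WT mice and 15 and 4 in Mef2dα2 Eko mice. Its levels were 0.0791, 0.161, 0.174 and 0.0559 CPM, against 0.0348 to 0.0419 CPM for a floor of 3 counts, and the genotypes overlapped. The fitted log2 fold change was -0.03 with a standard error of 0.73 and an interval from 0.293-fold to 3.26-fold (edgeR adjusted p = 0.992), the widest of the 6. Without Mef2dα2 Eko replicate 1 the value was -1.07, without WT replicate 2 it was 0.57, without Mef2dα2 Eko replicate 2 it was 0.52 and without WT replicate 1 it was -0.45. The strand setting of the counting is not given in the sources used here, so reads from the opposite strand, where 6 microRNA hairpins lie, cannot be told apart from those of Rtl1.

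Dio3, the deiodinase that inactivates thyroid hormone, had 26 and 46 counts in WT mice and 32 and 19 counts in the mutants. At 0.343, 0.569, 0.371 and 0.266 CPM, WT replicate 2 was the highest and Mef2dα2 Eko replicate 2 the lowest, and the genotypes overlapped. This gave a log2 fold change of -0.51 with a standard error of 0.43 and an interval from 0.349-fold to 1.41-fold (edgeR adjusted p = 0.693). WT replicate 2 carried most of it. Without that mouse the value was -0.08, and without WT replicate 1 it was -0.83. The 6 slow-fibre markers summed to 319 and 755 CPM in WT mice and 499 and 327 CPM in the mutants, so their sum too was highest in WT replicate 2. Among them Myh7b was instead highest in Mef2dα2 Eko replicate 1, at 3.04 CPM. Of these markers 0 passed the edgeR threshold, and their part in the Dio3 values was not tested.

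**Figure D3:**
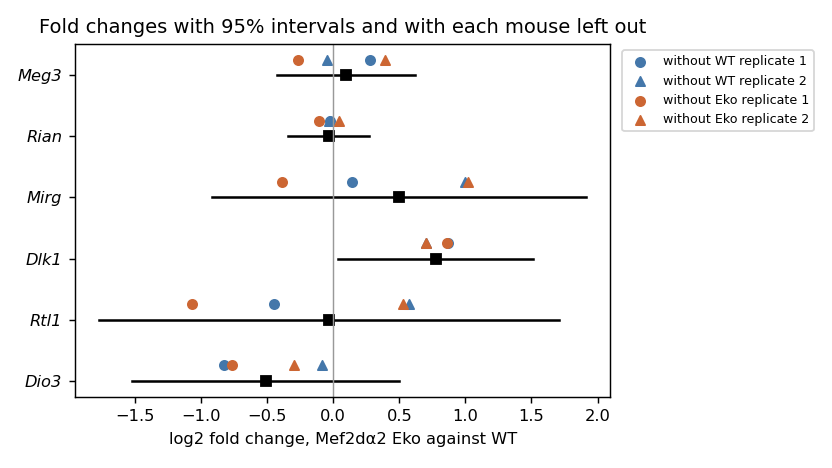
Log2 fold change of each of the 6 genes for Mef2dα2 Eko against WT mice, as black squares with bars for the 95% interval, and as coloured points above them with each mouse left out. The interval of Dlk1, from 0.04 to 1.51, is the one that does not reach 0, and the widest is that of Rtl1, from -1.77 to 1.71.

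Per kilobase of annotated exon, Meg3 stood highest at a mean of 0.599 CPM per kb over the 4 mice, followed by Rian at 0.234, Dio3 at 0.191, Dlk1 at 0.104, Mirg at 0.0364 and Rtl1 at 0.0185 CPM per kb. Meg3 was above Rian in every mouse. Rian and Dio3 overlapped, since Dio3 reached 0.280 CPM per kb in WT replicate 2, where Rian was at 0.235. Dio3 and Dlk1 overlapped in the Mef2dα2 Eko mice, at 0.183 and 0.131 against 0.125 and 0.138 CPM per kb. Mirg and Rtl1 overlapped across mice, with ranges of 0.0217 to 0.0620 and 0.0088 to 0.0274 CPM per kb. The order was the same with the length of the longest transcript in place of all exons, although Rian was then at 0.527 and Mirg at 0.0695 CPM per kb.

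Counts of the locus came mainly from the noncoding genes. The 6 genes together had 1299 and 1210 counts in WT mice and 1718 and 992 counts in Mef2dα2 Eko mice, or 17.1, 15.0, 19.9 and 13.9 CPM. Meg3 and Rian made up 90.5% to 93.9% of them in each mouse. The share of Meg3 was 68.5% and 61.8% in WT mice and 69.1% and 62.2% in Mef2dα2 Eko mice, with 95% Wilson intervals of 65.9% to 71.0%, 59.1% to 64.5%, 66.9% to 71.2% and 59.1% to 65.2%. Replicate 1 of each genotype thus had the larger Meg3 share, by more than the counting intervals, and the genotypes overlapped. Rian took 25.4% and 28.7% in WT mice and 22.4% and 28.6% in the mutants. The share of Dlk1 was 2.69% and 2.73% in WT mice and 3.55% and 5.65% in Mef2dα2 Eko mice.

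**Figure D4:**
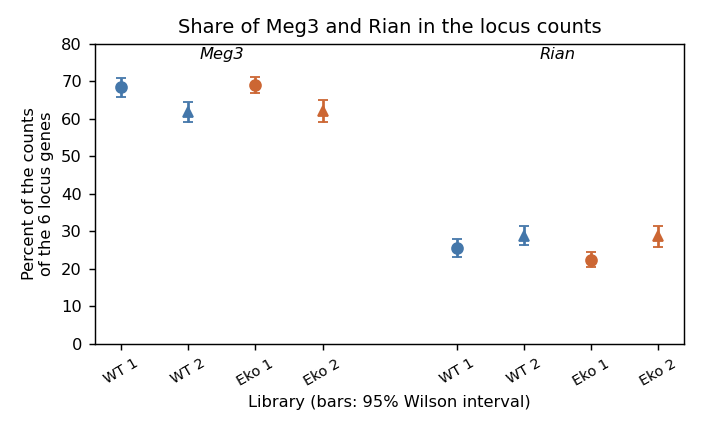
Percent of the summed counts of the 6 genes taken by Meg3 and by Rian in each mouse (blue for WT, orange for Mef2dα2 Eko), with bars for the 95% Wilson interval. The Meg3 share is higher in replicate 1 of both genotypes, at 68.5% and 69.1%, than in replicate 2, at 61.8% and 62.2%, and the Rian share is lower there.

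Summed by class, the maternal noncoding genes read 16.2 and 13.8 CPM in WT mice and 18.7 and 12.8 CPM in Mef2dα2 Eko mice. The paternal coding genes read 0.883 and 1.14 CPM in WT mice and 1.25 and 1.10 CPM in Mef2dα2 Eko mice. The genotypes overlapped in both sums. The coding genes made up 5.16% and 7.60% of the locus counts in WT mice and 6.29% and 7.96% in Mef2dα2 Eko mice, again with overlap.

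Values of other cell types were set beside the member that moved most between the Mef2dα2 Eko mice with ample counts, Meg3. Markers of myofibres summed to 114000 to 119200 CPM in every library, so the defining markers of the labelled tissue were present. The 6 markers of fibro-adipogenic progenitors, the connective-tissue cells of muscle, summed to 334 and 349 CPM in WT mice and 368 and 291 CPM in Mef2dα2 Eko mice, highest and lowest in the same mice as Meg3. Dcn and Col1a1 were highest in Mef2dα2 Eko replicate 1, whereas the other 4 markers were lower in both mutants than in both WT mice and did not follow Meg3. Dcn also stands among the imprinted genes below. The part of these markers in the Meg3 levels was not tested. Markers of satellite cells, the muscle stem cells, summed to 26.4 to 29.9 CPM, and those of endothelium to 178 to 210 CPM. Beside Dlk1, adipocyte markers summed to 627 and 688 CPM in WT mice and 510 and 506 CPM in Mef2dα2 Eko mice, lower in both mutants where Dlk1 was higher. This sum was mainly Lpl, at 508 and 605 CPM in WT mice and 424 and 441 CPM in the mutants, and Lpl was the only 1 of the 6 adipocyte markers in which both mutants lay below both WT mice. Schwann cell markers summed to 40.3 and 42.7 CPM in WT mice and 44.5 and 53.7 CPM in the mutants, and 3 of the 6 stood above both WT mice in both mutants, like Dlk1. Macrophage markers summed to 31.5 and 25.4 against 22.9 and 16.2 CPM. Of the 6 markers in each of these lists, 0 passed the edgeR threshold and 0 were at 0 in all libraries, and their part in the Dlk1 values was not tested.

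The genes whose profile over the 4 libraries lay nearest to that of Meg3 were sought among 12130 genes with at least 1 CPM outside the locus, by the root-mean-square difference of centred log2 CPM. They were Thbs2 at 0.0136, Tbx2 at 0.0188, Sall2 at 0.0206, Ccnl1 at 0.0334 and Pdzd7 at 0.0411. Thbs2, a matricellular thrombospondin, had 801 and 683 counts in WT mice and 1080 and 550 counts in Mef2dα2 Eko mice, with the same order of mice as Meg3. Within the locus Rian was nearest at 0.219, and 11.2% of the candidate genes were nearer to Meg3 than it was. The coding genes and Mirg lay at 0.450 to 0.480, farther than 95.2% to 96.5% of the candidates. Each of these genes was below 1 CPM in every mouse, under the minimum set for the candidates. Counting error is larger at such levels, and its part in these distances was not tested. These distances rest on 4 libraries and are a description.

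The neighbours of the locus gave little to compare. Of 25 other annotated genes between Begain and Ppp2r5c that were not small RNAs, 7 had a row and 2 were tested, with 0 called and 0 below an unadjusted p of 0.05. Begain, a synaptic scaffold gene, had 12 and 13 counts in WT mice and 11 and 16 counts in Mef2dα2 Eko mice. Ppp2r5c, a regulatory subunit of protein phosphatase 2A, read 74.0 and 73.1 CPM in WT mice and 73.6 and 77.1 CPM in Mef2dα2 Eko mice, with a log2 fold change of 0.03 (edgeR adjusted p = 0.882).

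Genes known to be imprinted at other loci were next compared, and their imprinting in muscle was not measured here. Of 42 listed, 35 were tested, and edgeR called 0 of them, with 6 below an unadjusted p of 0.05. Of these 35, 21 lay above 0 and 14 below, with a median log2 fold change of 0.03. Both Mef2dα2 Eko mice stood above both WT mice in 12, and below in 5, against 20.8% and 23% of all genes tested.

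The largest differences in that list were in Usp29 and Peg3, paternally expressed neighbours on chromosome 7 that start side by side in opposite directions. Peg3, a zinc finger protein, read 19.02 and 18.78 CPM in WT mice and 51.9 and 32.2 CPM in Mef2dα2 Eko mice. Usp29, a ubiquitin protease gene, read 0.698 and 0.767 CPM in WT mice and 1.89 and 1.43 CPM in Mef2dα2 Eko mice. In both genes both mutants lay above both WT mice, with replicate 1 the higher, as in Meg3. The log2 fold change of Peg3 was 1.16 with a standard error of 0.20 (edgeR adjusted p = 0.104), and that of Usp29 was 1.18 with a standard error of 0.25 (edgeR adjusted p = 0.170). Neither passed in the quasi-likelihood test. Of the 9 alternatives that kept all mice, 4 called Peg3 and 3 called Usp29, with DESeq2 giving adjusted p = 0.0242 for Peg3 and adjusted p = 0.0455 for Usp29. Without Mef2dα2 Eko replicate 1 the value of Peg3 was 0.78 (edgeR adjusted p = 0.000905), and without replicate 2 it was 1.46 (edgeR adjusted p = 7.0e-05). Without WT replicate 2 Peg3 also passed (1.16, edgeR adjusted p = 0.0464), and without WT replicate 1 it did not (1.17, edgeR adjusted p = 0.102). Usp29 overlaps Zim3 on the other strand. Calcr, the calcitonin receptor known from quiescent satellite cells, had a log2 fold change of 0.66 (edgeR adjusted p = 0.614), and Nap1l5, a nucleosome assembly gene that lies within Herc3 on the other strand, had 0.62 (edgeR adjusted p = 0.641).

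Among 23 imprinting and chromatin regulators, all tested, edgeR called 0, with 3 below an unadjusted p of 0.05. Their median log2 fold change was 0.14, with 15 above 0 and 8 below. Zfp57, which protects methylation at imprinted loci, had 23 and 15 counts in WT mice and 32 and 29 counts in Mef2dα2 Eko mice, which gave a log2 fold change of 0.67 (edgeR adjusted p = 0.598). Ctcfl, the testis paralog of CTCF, was at -0.97 (edgeR adjusted p = 0.542) on 11 to 29 counts per library. The cytosine demethylation enzyme Tet1 was at 0.45 and the methyltransferase Dnmt3b at 0.38 on the log2 scale, with edgeR adjusted p-values of 0.678 and 0.767.

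Dlk1 acts on Notch signalling, and of 28 genes of that pathway 25 were tested, with 0 called by edgeR and 3 below an unadjusted p of 0.05. Their median log2 fold change was -0.03. Hes1, a transcriptional target of Notch, read 11.7 and 7.06 CPM in WT mice and 6.99 and 5.19 CPM in Mef2dα2 Eko mice, so that both mutants lay below both WT mice, the higher mutant close to WT replicate 2. Its log2 fold change was -0.62 (edgeR adjusted p = 0.414). Mfng, a glycosyltransferase that modifies Notch, was at -0.43, the Notch target Hey1 at 0.33 and Numbl, of the Notch inhibitor Numb family, at -0.32 on the log2 scale, with edgeR adjusted p-values of 0.690, 0.760 and 0.583.

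Dio3 acts on thyroid hormone, and of 20 genes of that pathway 17 were tested. A single gene, Hr, a corepressor of the thyroid hormone receptor, passed the threshold and fell. Hr read 117 and 106 CPM in WT mice and 78.4 and 75.5 CPM in Mef2dα2 Eko mice, so that both mutants lay below both WT mice, as did 23% of all genes tested. Its log2 fold change was -0.54 with a standard error of 0.07 (edgeR adjusted p = 0.0484). The call was close to the threshold, and with RLE size factors the adjusted p was 0.0503. It was lost in 4 of the 9 alternatives that kept all mice, and also without WT replicate 1 (-0.46, edgeR adjusted p = 0.0552) and without Mef2dα2 Eko replicate 2 (-0.51, edgeR adjusted p = 0.0655). Over the 17 genes tested, 8 lay above 0 and 9 below, with a median of -0.03.

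The other thyroid hormone genes did not pass. Dio2, the deiodinase that activates the hormone, was at 0.46 on the log2 scale, the intracellular binding protein Crym at 0.56 and Ucp3, a hormone-responsive mitochondrial carrier, at -0.29, with edgeR adjusted p-values of 0.677, 0.491 and 0.571. Dio1 had 0 counts in each library, and Dio3os was not analysed here.

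Secreted Wnt inhibitors were examined because Sfrp2 is a known target of microRNAs of the locus, miR-410-3p, shown above, among them. Of 22 inhibitors and targets of Wnt, 17 were tested, with 0 called by edgeR and 4 below an unadjusted p of 0.05. Their median log2 fold change was 0.13, with 13 above 0 and 4 below. Sfrp2 had 136 and 24 counts in WT mice and 69 and 23 counts in Mef2dα2 Eko mice, so that 1 mouse of each genotype was high, and its log2 fold change was -0.87 with a standard error of 0.78 (edgeR adjusted p = 0.716). Sfrp1, a related inhibitor, read 1.57 and 1.74 CPM in WT mice and 2.42 and 2.50 CPM in Mef2dα2 Eko mice, which gave a log2 fold change of 0.57 (edgeR adjusted p = 0.298). Wif1 was at 0.55 and Apcdd1 at 0.53 on the log2 scale, with edgeR adjusted p-values of 0.381 and 0.358.

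The MEF2 genes themselves did not pass. Mef2a, whose product is known to act on the noncoding cluster, read 202 and 193 CPM in WT mice and 204 and 217 CPM in Mef2dα2 Eko mice, which gave a log2 fold change of 0.09 (edgeR adjusted p = 0.665). Mef2d was at 0.02 and Mef2c at 0.00 on the log2 scale, with edgeR adjusted p-values of 0.960 and 0.996.

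**Figure D5:**
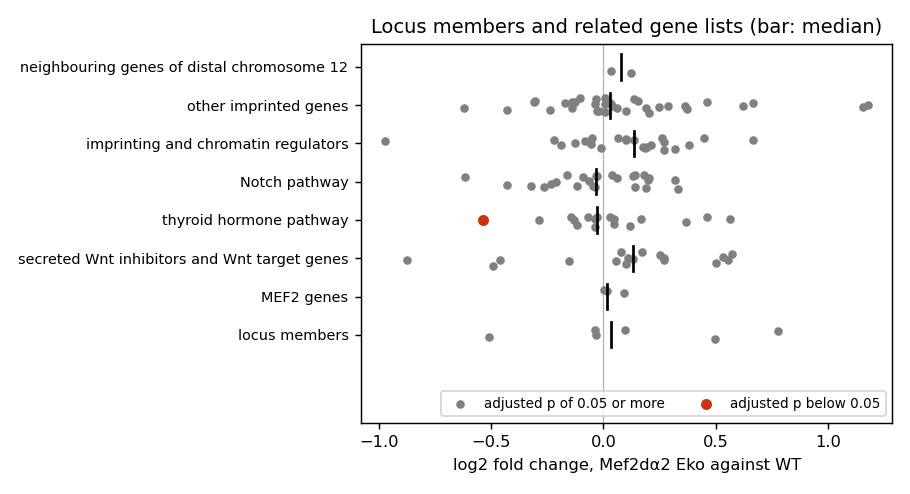
Log2 fold change for Mef2dα2 Eko against WT mice of each tested gene in the 6 locus members and 7 related lists, with 1 point per gene and a black bar at the median of each list. The single gene past the adjusted p threshold is Hr, at -0.54 in the thyroid hormone list.

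Over all genes tested, the 4 mice separated without overlap between the genotypes in 43.8%, and in the locus they did so in 1 of 6 genes, Dlk1.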

How the data were processed

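PolyA RNA of quadriceps from 2 WT and 2 Mef2dα2 Eko mice was sequenced. The authors checked reads with FastQC, aligned them to mm10 (STAR 2.6.1a per the submitters' processing notes) and estimated counts per gene with RSEM and an Ensembl annotation of GRCm38. The deposited expected counts were not normalized and were all whole numbers, so rounding changed none. The library kit was stranded. The strand setting of the counting is not given in the sources used here.

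Expected counts were tested in R 4.3.3 with edgeR 4.0.16 (quasi-likelihood test, TMM, its default filter with a minimum count of 10, prior count 0.125) on the 4 libraries with genotype as the sole term. Of 24621 genes with any count, 16120 were tested, and p-values were Benjamini-Hochberg adjusted over them. The test was also tested on simulated data. Alternatives were RLE, upper-quartile and total-count scaling, no filter, a filter of 1 CPM in 2 libraries, DESeq2 1.42.0, edgeR's likelihood ratio test, limma-voom (limma 3.58.1), a replicate block and leaving out each mouse. Those for Hr, Peg3 and Usp29 were added after their values were seen.

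Exon lengths and positions came from GENCODE M21 on GRCm38, so a gene's limits can differ from those the authors used. MicroRNA and promoter sequences came from RefSeq tables on GRCm38.p6, which matched 5 of the 6 members for promoters. Genes of each list are named where they passed the threshold, as are up to 4 others with the largest absolute log2 fold change, together with the 5 genes nearest to Meg3 in profile. A single gene that this rule names is not reported here. The members and lists were chosen with earlier results of these data known.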

Additional observations from a re-analysis of the deposited data

How the results depend on the processing

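In none of the 13 alternatives was a locus member called. The 9 that kept all mice left the sign of every member they tested as reported, with Meg3 between 0.07 and 0.11, Rian between -0.04 and -0.03, Mirg between 0.41 and 0.50, Rtl1 between -0.13 and -0.03 and Dio3 between -0.52 and -0.48. The filter of 1 CPM in 2 libraries tested only Meg3 and Rian. Leaving out each mouse in turn gave -0.27 to 0.39 for Meg3, -0.11 to 0.044 (without Mef2dα2 Eko replicate 2) for Rian, -0.39 to 1.02 for Mirg and -1.07 to 0.57 for Rtl1, so these 4 changed sign, while Dlk1 (0.70 to 0.87) and Dio3 (-0.83 to -0.08) did not. Meg3 reached an unadjusted p below 0.05 without Mef2dα2 Eko replicate 2 (edgeR adjusted p = 0.469). Where an arm held 1 mouse, that mouse was assumed to vary like the other genotype.

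The number of all genes past the threshold, 67, was 35 with library totals alone, 799 with no filter on low counts, 23 with the filter of 1 CPM, 318 with DESeq2, 312 with the likelihood ratio test and 99 to 299 with a mouse left out. The cause was not tested.

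Replicate numbers come from the library names and mark different mice. The deviations of same-numbered mice had a correlation of 0.0909 over genes, with 2 pairs. With the replicate number as a block, edgeR called 186 genes and 0 members, with Dlk1 at 0.78 (edgeR adjusted p = 0.340). Under the block Peg3 passed, at 1.12 (edgeR adjusted p = 0.0163), and Usp29 did not (edgeR adjusted p = 0.0986).

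Mirg, Rtl1 and Dio3 had 4 to 46 counts per library, which limits the precision of their values.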

Other observations

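Grb10, Ube3a, H19 and Slc38a4 were chosen after their values were seen, as the other imprinted genes below an unadjusted p of 0.05, and none passed the adjusted threshold. Grb10, a growth factor receptor adaptor, read 18.2 and 20.5 CPM in WT mice and 25.8 and 23.9 CPM in Mef2dα2 Eko mice, which gave a log2 fold change of 0.36 (edgeR adjusted p = 0.219). Ube3a, a ubiquitin ligase that Snhg14 overlaps on the other strand, was at 0.20 (edgeR adjusted p = 0.317), with both mutants above both WT mice. H19, a maternally expressed noncoding RNA and microRNA host like Meg3, read 417 and 350 CPM in WT mice and 325 and 296 CPM in Mef2dα2 Eko mice, which gave a log2 fold change of -0.30 (edgeR adjusted p = 0.329). The amino acid transporter Slc38a4 was at -0.31 (edgeR adjusted p = 0.374), again with both mutants below both WT mice.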
